A study of Mus musculus with 12 samples.

Results

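Cav1 and Sh3kbp1 are 2 genes of membrane traffic whose mRNA moved in opposite directions when mouse granulosa cells were cultured with activin A. They were picked by name from earlier results of these arrays: both stood out in the difference between activin and PBS, and Cav1 also in the difference between activin and activin plus follistatin. Those differences are therefore given as descriptions, with no test. The members are 2 of the 8127 genes that could be named and are read by 3 of the 46093 probes tested, 1 for Cav1 and 2 for Sh3kbp1. A probe was tied to a gene by reading the number in its identifier as a mouse Entrez gene number, which the files do not state, and the brightest probe stands for a gene.

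The arrays measured RNA of primary ovarian granulosa cells, the hormone-producing cells around the egg, from immature mice 21 to 23 days old, with 14 to 20 ovaries pooled for a culture. The strain, the genotype and the doses are not given in the sources used here. Cultures received PBS (the vehicle), activin A, a relative of transforming growth factor beta, or activin A together with follistatin, a secreted protein that binds activin, each for 24 h. The whole experiment was done 4 times, with 1 array of each treatment in each, so there are 12 arrays and 4 per treatment. Levels are the deposited signals on a log2-like scale, and 7.31, the highest mean of the spike-in control spots, is taken as the background level. Differences between treatments are log2 differences on that scale, with standard errors (SE) from a limma fit over all 12 arrays. Background was not subtracted, so differences of probes near 7.31 are understated. Of 15 granulosa markers 4 had a named probe (Amhr2, Wt1, Bex4 and Cyp11a1), and all 4 were above background.

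Caveolin-1, the product of Cav1, is the main coat protein of caveolae, flask-shaped pits of the plasma membrane. Caveolins line the pits together with cavins, and caveolae take part in uptake, in buffering of membrane tension and in holding receptors and signalling enzymes in place. Sh3kbp1, also called Cin85 or Ruk, is an adaptor with SH3 domains that binds the ubiquitin ligase Cbl and endophilins and helps to draw activated receptor tyrosine kinases into clathrin-coated pits. Receptors of the transforming growth factor beta family are known to enter cells by both routes. The caveolar route is linked to their turnover and the clathrin route to signalling from endosomes.

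Cav1 lies on chromosome 6 and Sh3kbp1 on the X chromosome of the RefSeq annotation of GRCm38.p6. Activin signals reach DNA through Smad proteins, whose core recognition letters are CAGAC, or GTCTG on the other strand. For that reason the 250 bases before the RefSeq start sites are shown for both Cav1 starts and for the outermost of the 4 listed Sh3kbp1 starts. All read 5′ to 3′ on the plus strand, and capitals mark the Smad box and the GC box (GGGCGG, or CCGCCC on the other strand), the letters bound by Sp1.
Cav1, first start, chr6:17306085-17306334: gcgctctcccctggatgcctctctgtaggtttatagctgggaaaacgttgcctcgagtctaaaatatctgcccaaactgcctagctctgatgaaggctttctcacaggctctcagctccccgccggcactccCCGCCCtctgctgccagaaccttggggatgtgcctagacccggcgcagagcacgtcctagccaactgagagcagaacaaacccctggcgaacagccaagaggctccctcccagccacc
Cav1, second start, chr6:17307390-17307639: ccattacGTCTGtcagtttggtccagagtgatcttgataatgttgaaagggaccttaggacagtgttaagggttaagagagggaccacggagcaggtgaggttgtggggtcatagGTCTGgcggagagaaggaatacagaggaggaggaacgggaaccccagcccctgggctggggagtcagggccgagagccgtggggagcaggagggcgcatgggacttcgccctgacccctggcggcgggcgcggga
Sh3kbp1, first start, chrX:159627022-159627271: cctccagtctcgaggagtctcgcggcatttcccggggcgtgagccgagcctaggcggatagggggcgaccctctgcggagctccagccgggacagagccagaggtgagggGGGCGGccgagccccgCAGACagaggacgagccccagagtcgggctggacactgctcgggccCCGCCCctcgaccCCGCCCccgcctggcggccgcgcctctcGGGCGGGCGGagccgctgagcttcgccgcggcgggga
The stretch before the first Cav1 start held 0 Smad boxes and 1 GC box, and that before the second start held 2 Smad boxes and 0 GC boxes. The Sh3kbp1 stretch held 1 Smad box and 5 GC boxes, of which the last 2 overlap each other. Its GC content was 76.4%, against 59.6% and 60.8% for the Cav1 stretches. A Smad box occurs in 42.2% and a GC box in 32.7% of the 32851 RefSeq stretches of this length, so these letters are common. Neither the longer Smad palindrome GTCTAGAC, present in 0.2% of stretches, nor the FoxO letters GTAAACA, present in 3.2%, occurred in the 3 stretches shown on either strand. A match is a run of letters and no measured site.

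With PBS the Cav1 signal was 12.16, 12.77, 12.22 and 12.78 in experiments 1 to 4, far above background. With activin it was 10.24, 11.07, 10.21 and 10.45, and all 4 arrays lay below the lowest PBS array, as in 5.06% of named genes. The mean fell from 12.48 ± 0.336 (SD, n = 4) to 10.49 ± 0.401, a difference of -1.99 ± 0.25 (SE), or 3.97-fold when the scale is read as plain log2. Within single experiments the difference ran from -2.32 in experiment 4 to -1.69 in experiment 2, so every experiment showed the fall. It was the 4th lowest of the 8127 named genes. Even with activin, the transcript stayed 3.18 above the background level.

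With activin plus follistatin Cav1 read 12.44, 12.84, 12.56 and 13.47. These arrays overlap those with PBS, and the array of experiment 4 was the highest of all 12. The mean was 12.83 ± 0.46 (SD, n = 4), above PBS by 0.35 ± 0.25 (SE), or ± 0.15 with the experiment as a block. Within experiments, which takes out the level of each preparation, Cav1 was higher with activin plus follistatin than with PBS in 4 of 4, by 0.08 to 0.70. If the highest array of that group (experiment 4) is left out the difference is 0.13, and if the lowest (experiment 1) is left out it is 0.48. The difference between activin and activin plus follistatin was -2.34 ± 0.25, a 5.05-fold lower signal with activin alone, and the groups did not overlap, as in 8.59% of named genes in this direction. Comparisons that share a treatment share its arrays, so these 3 differences are not independent of each other.

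Sh3kbp1 moved the other way. Its brighter probe read 8.43, 8.66, 8.69 and 8.44 with PBS and 10.04, 9.92, 9.71 and 10.14 with activin, and the groups did not overlap, which 5.29% of named genes showed in this direction. The means were 8.56 ± 0.140 (SD, n = 4) and 9.95 ± 0.185, a difference of 1.40 ± 0.09 (SE), or 2.64-fold. Single experiments gave 1.02 to 1.70, the 8th highest mean difference of the 8127 named genes.

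The dimmer probe of Sh3kbp1 gave the same direction in every experiment at a smaller size. It read 7.38, 7.47, 7.57 and 7.49 with PBS, 0.17 above background on average, and 8.09, 7.89, 8.05 and 8.22 with activin. Its groups did not overlap either, and its difference was 0.58 ± 0.06 (SE). Both probes were tied to Sh3kbp1 by the number in their identifiers. Whether they read the same transcripts was not tested. Their signals had a Pearson r of 0.97 over the 12 arrays and of 0.62 once treatment means were removed, as a description over arrays that share preparations. With the mean of both probes the difference between activin and PBS was 0.99.

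**Figure D1:**
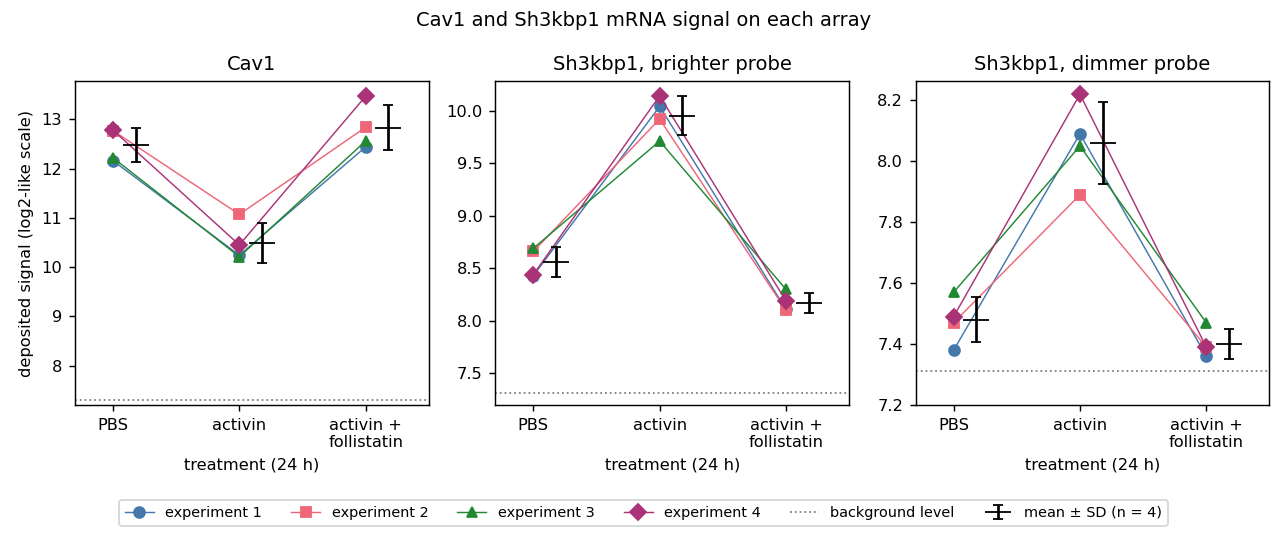
Deposited signal (log2-like scale, a separate range in each panel) of Cav1 and of both Sh3kbp1 probes on the 12 arrays by treatment; coloured points and lines join the arrays of 1 experiment, black bars are the mean ± SD of 4 arrays and the dotted line is the background level of 7.31. Cav1 drops to between 10.21 and 11.07 with activin and the brighter Sh3kbp1 probe rises to between 9.71 and 10.14, and both are near or past their PBS level when follistatin is added.

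With activin plus follistatin the brighter Sh3kbp1 probe read 8.11, 8.10, 8.30 and 8.19, all below the lowest PBS array. The difference from PBS was -0.38 ± 0.09 (SE), lower in 4 of 4 experiments by 0.25 to 0.56. This contrast did not choose the gene, although it shares the PBS arrays with the one that did. Its other arrays enter the difference between activin and activin plus follistatin, which was also left untested for Sh3kbp1. The p-values and interval that follow are therefore not independent of how the gene was picked. It did not pass limma's test with Benjamini-Hochberg adjustment over all 46093 probes (adjusted p = 0.208, and 0.137 with the experiment as a block), and with the mean of both probes it was -0.23 (adjusted p = 0.385). Before adjustment, limma gave p = 0.00151 and a 95% interval of -0.58 to -0.18, and a two-sided exact permutation test of the 4 against 4 arrays gave p = 0.0286, the smallest it can give. The permutation test exchanged arrays across experiments and so did not use their pairing by experiment. A permutation within the 4 experiments was not run and could not give a value this small. Of the 8127 named genes, 0.258% passed the adjusted test in this comparison, and 2.40% had all 4 arrays below all 4 PBS arrays, as Sh3kbp1 had.

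The dimmer Sh3kbp1 probe read 7.36, 7.39, 7.47 and 7.39 with activin plus follistatin, which overlaps its PBS arrays. Its difference was -0.08 ± 0.06 (SE; limma adjusted p = 0.888), with a 95% interval of -0.21 to 0.06, near background. Between activin and activin plus follistatin the brighter probe differed by 1.78 ± 0.09 (SE), 3.43-fold, and the dimmer one by 0.66 ± 0.06. Every experiment had the activin array higher, by 1.41 to 1.95 for the brighter probe, and 7.32% of named genes had all 4 activin arrays above all 4 of the other group.

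**Figure D2:**
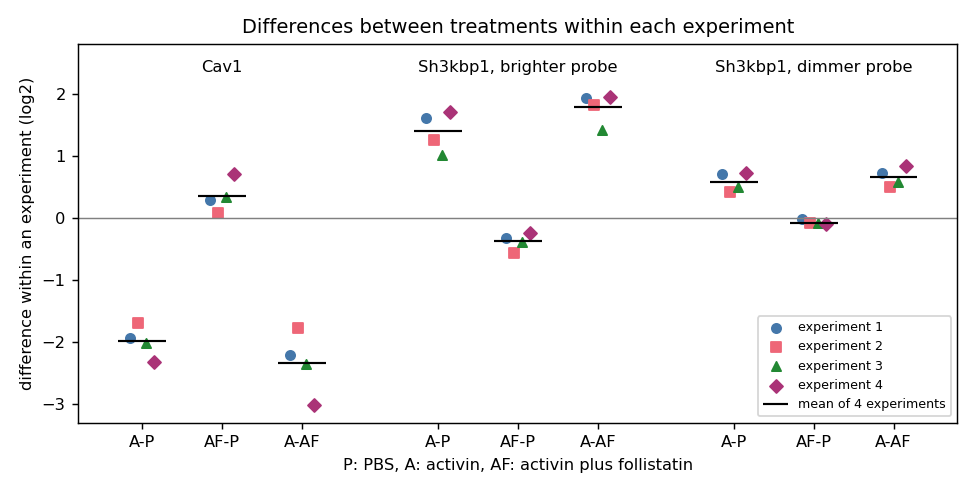
Difference in signal (log2, vertical axis) between pairs of treatments within each of the 4 experiments, for Cav1 and both Sh3kbp1 probes; points are experiments and black lines their mean. Cav1 lies below 0 for activin minus PBS (-2.32 to -1.69) and above 0 for activin plus follistatin minus PBS (0.08 to 0.70), and the brighter Sh3kbp1 probe shows the opposite signs (1.02 to 1.70 and -0.56 to -0.25).

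By the brightest probe the genes also differed in how far they followed the cell preparation. Of the variance of Cav1 over the 12 arrays, treatment accounted for 89.7%, experiment for 7.4% and the rest for 2.8%. For the brighter Sh3kbp1 probe the shares were 97.4%, 0.1% and 2.5%, and for the dimmer one 93.0%, 2.8% and 4.2%. Over the 4068 named genes above background the median shares were 29.6% for treatment, 31.4% for experiment and 24.8% for the rest, and the large treatment share of these genes follows from how they were chosen. Experiments 2 and 4 had the higher Cav1 arrays with PBS and with activin plus follistatin, and experiment 2 alone stood higher with activin. Once treatment means were removed, Cav1 and Sh3kbp1 had a Pearson r of 0.03 over the 12 arrays, as a description.

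Cav1 was the sole measured gene of the caveola coat list with a change of this size, but Cav2, Cavin1 and Pacsin1 were at or near background. Of 16 genes listed for the coat, its accessory proteins and membrane rafts, 7 had a named probe. Apart from Cav1 these were Cav2, its partner caveolin, Cavin1, the cavin needed to form the pit, Ehd4, a membrane-bending ATPase, Pacsin1 and Pacsin3, membrane-curving F-BAR proteins, and the raft protein Flot2. By the brightest probe, none of these 6 passed limma's test between activin and PBS, where 406 of the 8127 named genes did (2.85% higher and 2.14% lower) and 2 of the 6 had an unadjusted p below 0.05 (Ehd4 and Flot2). A second, dimmer Pacsin1 probe, at a mean of 7.24 and so below background, was called higher with activin, by 0.17 against PBS (adjusted p = 0.0332) and by 0.18 against activin plus follistatin (adjusted p = 0.00956), where the brighter one was -0.03 ± 0.04 against PBS. The median difference of the 6 was -0.04 beside 0.00 over all named genes. Cav2 read between 7.04 and 7.29 with PBS and between 7.10 and 7.24 with activin, all below the background level (difference 0.01 ± 0.06, SE). Cavin1 was also at background, with a mean of 7.28 over all arrays. The Cav2 and Cavin1 probes were not above background, so their difference cannot be read beside that of Cav1.

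Ehd4 and Flot2 were well above background. Ehd4 read 9.98, 9.79, 9.40 and 9.76 with PBS and 9.33, 9.55, 9.16 and 9.51 with activin, lower within each experiment although the groups overlap. Its difference of -0.34 ± 0.11 (SE) did not pass (limma adjusted p = 0.184) unless experiment was a block (0.0313). Flot2 was -0.18 ± 0.08 against PBS and did not pass (adjusted p = 0.394, block 0.0854). Against activin plus follistatin Flot2 was lower with activin, 9.83 to 10.10 beside 10.17 to 10.39, a difference of -0.34 ± 0.08 (adjusted p = 0.0226). That call ended without any of 5 single arrays (adjusted p up to 0.0725). Ehd4 differed by -0.36 ± 0.11 in the same comparison and passed with the block alone (adjusted p = 0.0934, block 0.0141). In this comparison 6.42% of named genes were called lower and 5.50% higher.

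Among 10 measured genes of 22 listed as binding caveolin or sitting in caveolae, 1 was called, and that between activin and activin plus follistatin. In that comparison 5.50% of named genes were called higher. Scarb1, the receptor for high-density lipoprotein, was higher with activin by 1.44 ± 0.39 (SE; limma adjusted p = 0.0481, with 13.95, 12.85, 14.20 and 12.07 against 11.56 to 12.05). Its call ended without any of 11 single arrays, with adjusted p up to 0.135, and the array of experiment 4 was the lowest with activin. Against PBS it was 1.15 ± 0.39 and passed with the block alone (adjusted p = 0.205, block 0.0168). The brighter of the 2 probes for Tgfbr1, a type I receptor of the growth factor family, was -0.60 ± 0.19 between activin and activin plus follistatin and was called with the block alone (adjusted p = 0.0931, block 0.00253). Its dimmer probe, at a mean of 7.33, gave -0.06. The median difference of the 10 genes against PBS was -0.02 with activin and -0.01 with activin plus follistatin, and 0 passed in the second of these, with 0 at an unadjusted p below 0.05.

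No measured relative or partner of Sh3kbp1 was called higher with activin, with or without the block. Of 31 genes listed, 16 others had a named probe, 11 of them above background, among them the ubiquitin ligases Cblb and Itch, the adaptors Crk, Crkl and Dab2, the exchange factor Sos1 and the actin-binding Cttn. Without a block limma called 0 of the 16 in any of the 3 comparisons, with 0, 1 and 1 at an unadjusted p below 0.05. Their median differences were 0.00 for activin against PBS, 0.02 for activin plus follistatin against PBS and -0.01 for activin against activin plus follistatin. Of all named genes, 2.85% were called higher and 2.14% lower with activin than with PBS without the block. Against activin plus follistatin 5.50% were called higher and 6.42% lower with activin. Between activin plus follistatin and PBS 0.258% were called in either direction. Whether 0 of 16 falls below these shares was not tested. With the experiment as a block Asap2 and Pik3r1 were called lower with activin than with PBS, where 5.20% of named genes were called lower with the block. Pik3r1, a regulatory subunit of phosphoinositide 3-kinase, read 10.43, 11.74, 11.27 and 12.03 with PBS and 10.29, 10.73, 10.02 and 10.95 with activin. Its difference was -0.87 ± 0.41 (SE; limma adjusted p = 0.439, block 0.0139), and experiment 1 hardly moved. Asap2, a GTPase-activating protein for Arf, was lower within each experiment, by -0.31 ± 0.21 on average (adjusted p = 0.674, block 9.95e-04). Both were also called lower with the block against activin plus follistatin, as were 9.91% of named genes, Pik3r1 at -0.92 ± 0.41 (block 0.00568) and Asap2 at -0.21 ± 0.21 (block 0.00456). The closest relative of Sh3kbp1, Cd2ap, and its ligand Cbl had no named probe here.

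Between activin and activin plus follistatin, 2 of 16 measured clathrin coat and adaptor genes were called lower with activin and none higher, and 1 of 10 measured dynamin and membrane-bending genes was lower. Of all named genes 6.42%, and of those above background 12.3%, were called lower in this comparison. Of the 16 and 10 measured genes, 7 and 5 were above background, and the called genes were among these. Whether the counts exceed the background share was not tested. Eps15, which binds ubiquitin in coated pits, read 8.27, 8.43, 8.46 and 8.22 with activin and 8.67, 8.71, 8.76 and 8.79 with activin plus follistatin, without overlap. Its difference was -0.39 ± 0.07 (SE; limma adjusted p = 0.00313), and the call held without any single array. The PBS arrays of Eps15, 8.45 to 8.72, overlapped both groups, and neither comparison with PBS passed (adjusted p = 0.200 and 0.479). Ap2m1, the cargo-binding subunit of the AP-2 adaptor, was -0.51 ± 0.12 (adjusted p = 0.0188, up to 0.0608 without 1 of 2 single arrays). The dynamin gene called was Dnm2, whose product cuts the vesicle free, at -0.16 ± 0.04 (adjusted p = 0.0306, up to 0.0867 without 1 of 6 single arrays).

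Of 16 measured endosome and sorting genes 5 were lower and none was higher in this comparison. The share called lower was 6.42% of all named genes and 12.3% of those above background. Rab11b, a GTPase of recycling endosomes, was -0.43 ± 0.07 (SE; adjusted p = 0.00344) and Vps29, a retromer subunit, -0.38 ± 0.07 (0.00398). Snx2, a sorting nexin, was -0.29 ± 0.07 (0.0199), Rab11a, another recycling GTPase, -0.22 ± 0.05 (0.0168) and Rab22a, a GTPase of early endosomes, -0.13 ± 0.04 (0.0434), all by limma with Benjamini-Hochberg adjustment. The last 3 calls ended without 1 of 3, 3 and 10 single arrays, with adjusted p up to 0.120. The median of the list was -0.14 beside 0.00 over all named genes, and 14 of its 16 measured genes were above background. Between activin and PBS none of the clathrin, dynamin or endosome genes passed limma's test, with or without the block, 4, 0 and 4 of them had an unadjusted p below 0.05, and their medians were -0.01, -0.02 and -0.06. With activin plus follistatin against PBS none passed either, with medians of 0.05, -0.01 and 0.11, and 2, 0 and 4 had an unadjusted p below 0.05.

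**Figure D3:**
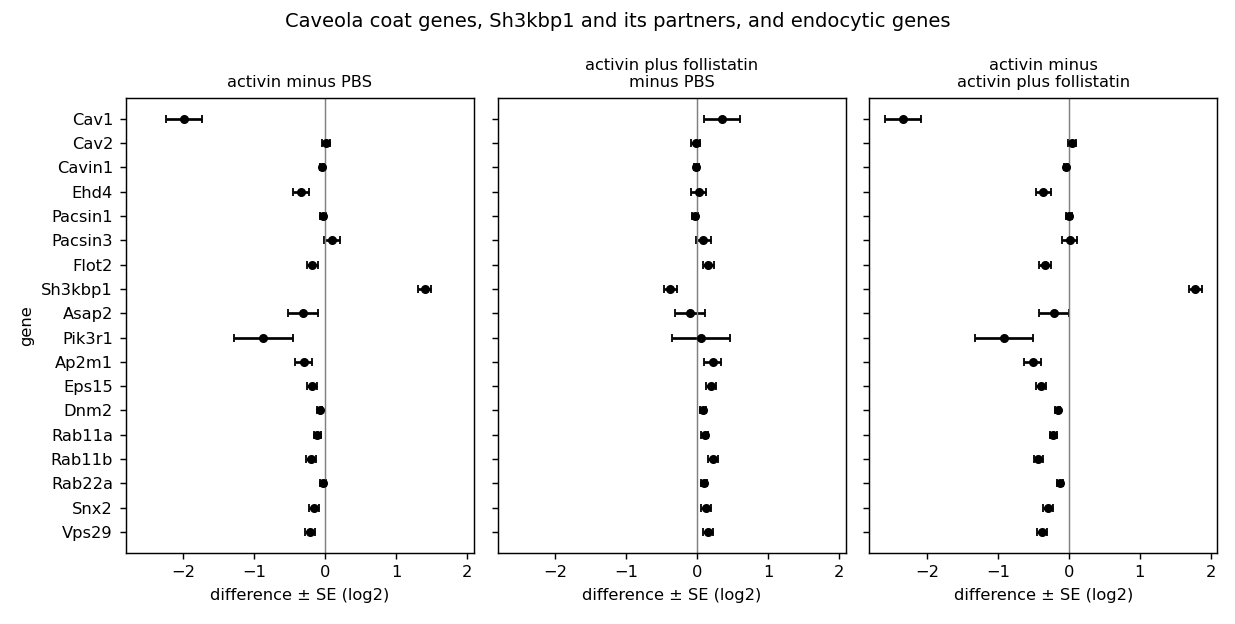
Difference ± SE (log2, horizontal axis, the same range in the 3 panels) from the limma fit. Shown are the measured genes of the caveola coat list and Sh3kbp1. The Sh3kbp1 partner, clathrin, dynamin and endosome genes called in at least 1 comparison, with or without the block, are also shown. Genes listed as binding caveolin or sitting in caveolae are not shown. Cav1 (-1.99 with activin against PBS) and Sh3kbp1 (1.40) lie far from 0 while Cav2, Cavin1, Pacsin1 and Pacsin3 lie within 0.10 of it in every panel.

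Sh3kbp1 acts on receptor tyrosine kinases, and of 25 such receptors and their regulators 9 were measured. Erbb2, a receptor of the epidermal growth factor family, was called in 2 comparisons. It read 7.77, 7.89, 7.84 and 7.94 with PBS and 8.22, 8.15, 8.17 and 8.33 with activin, a rise of 0.36 ± 0.04 (SE; limma adjusted p = 8.96e-04) at a low level. It was 0.32 ± 0.04 higher than with activin plus follistatin (adjusted p = 8.30e-04), and the call held without any single array. None of the other 8, among them Igf1r, Errfi1 and Lrig1, passed limma's test in any comparison, and with Erbb2 2, 0 and 2 of the 9 had an unadjusted p below 0.05 in the 3 comparisons. Over all named genes 2.85% were called higher with activin than with PBS and 5.50% higher than with activin plus follistatin.

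Neighbours on the chromosome were read in the same fit. Of the 5 protein-coding genes on each side of Cav1, 3 had a named probe: Cav2, the next gene, Capza2, at background, and Foxp2, whose difference between activin and PBS was -0.23 ± 0.23 (SE) and did not pass (limma adjusted p = 0.825). Foxp2 was called lower against activin plus follistatin with the block alone (-0.31 ± 0.23, adjusted p = 0.644, block 0.0305). Of the 5 on each side of Sh3kbp1, 2 had one. Rps6ka3, a kinase, was 0.11 ± 0.06 and did not pass. Phka2, a subunit of phosphorylase kinase, read 7.91, 7.89, 7.93 and 7.82 with PBS and 7.55, 7.58, 7.49 and 7.64 with activin, a fall of -0.32 ± 0.04 (adjusted p = 0.00143), opposite in direction to Sh3kbp1. Over all named genes 2.14% were called lower with activin than with PBS.

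Other genes shared the pattern of these 2 over the 12 arrays, with likeness measured as Pearson's r among the 4068 named genes above background. Because the treatments separate the arrays, r mostly reflects the treatment and is a description. Most like Cav1 were Ppp1r2 (r = 0.979), an inhibitor of protein phosphatase 1, Sestd1 (0.976), P3h2 (0.972), a collagen prolyl hydroxylase, Hadhb (0.970), a mitochondrial fatty acid oxidation subunit, and Rnase4 (0.967), a secreted ribonuclease. Among these Rnase4 had the largest difference between activin and PBS, -1.18. Most opposite to Cav1 were Dad1 (-0.982), a subunit of oligosaccharyltransferase, Mrps21 (-0.979), a mitochondrial ribosomal protein, and Ccnq (-0.973), a cyclin.

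Most like Sh3kbp1 were Ruvbl2 (r = 0.981), an AAA ATPase, the mitochondrial glycerophosphate dehydrogenase Gpd2 (0.981), the thioredoxin-like Txnl1 (0.976), the secreted Srpx2 (0.974) and the ubiquitin ligase Peli2 (0.972). Of these Srpx2 had the largest difference between activin and PBS, 1.13. Most opposite were the collagen chain Col8a1 (-0.985), the protocadherin Pcdh9 (-0.976) and the oxysterol-binding Osbpl9 (-0.972). Col8a1 read 12.26, 11.93, 12.20 and 12.10 with PBS, 9.17, 9.48, 9.06 and 9.02 with activin and 12.81, 12.91, 12.99 and 12.72 with activin plus follistatin, the same order of treatments as Cav1.

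Once treatment means were removed, what was left is how a gene varies between cultures given the same treatment. By that measure the gene most like Cav1 was Ccn1 (r = 0.964 over the 12 arrays), a matrix-associated protein known as a target of the YAP coactivator. Ccn1 read 8.95, 9.44, 9.06 and 9.48 with PBS, 8.13, 9.0, 8.15 and 8.60 with activin and 9.08, 9.61, 9.19 and 9.92 with activin plus follistatin. As for Cav1, experiments 2 and 4 were the higher ones with PBS and with activin plus follistatin, and experiment 2 was the highest with activin. Next came Ccny (0.955), Pex26 (0.949), Trim11 (0.943) and Zdhhc14 (0.929), whose differences between activin and PBS were between -0.09 and 0.11. For Sh3kbp1 the most alike were Txnl1 (0.854), Dtna (0.845), Ddx19b (0.833), Alg8 (0.809) and Caprin1 (0.807), so Txnl1 was near Sh3kbp1 by both measures. The treatment means of Dtna (7.31 to 7.35), Ddx19b (7.40 to 7.52) and Zdhhc14 (7.21 to 7.43) were near the background level of 7.31. All these r are the highest among 4068 genes and are descriptions.

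**Figure D4:**
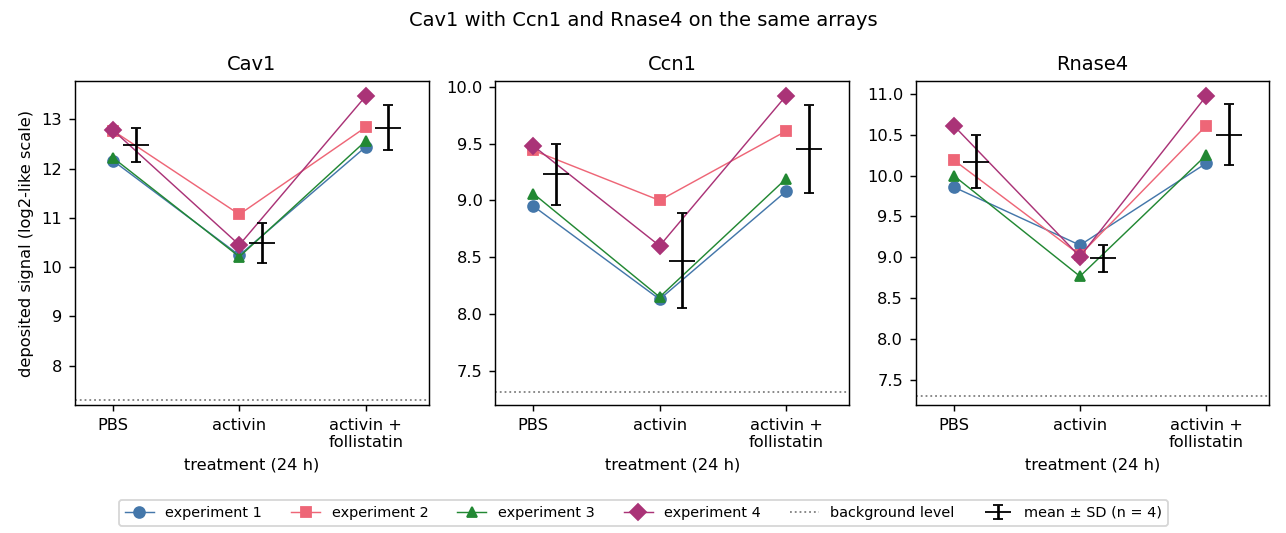
Deposited signal (log2-like scale, a separate range in each panel) of Cav1, Ccn1 and Rnase4 on the 12 arrays by treatment; coloured points and lines join the arrays of 1 experiment, black bars are the mean ± SD of 4 arrays and the dotted line is the background level of 7.31. In Cav1 and Ccn1 alike experiment 2 is the highest with activin (11.07 and 9.0) and experiment 4 the highest with activin plus follistatin (13.47 and 9.92).

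Cav1 is abundant in endothelial, smooth muscle and stromal cells, so markers of these were read beside it. In a culture, fewer cells of a type and less RNA per cell cannot be told apart. Of 13 stromal and theca markers 9 were measured, and their mean level was 8.28 to 8.55 on the PBS arrays, 7.91 to 8.05 with activin and 8.55 to 8.81 with activin plus follistatin, the same order as the Cav1 means. Of these 9, Aldh1a1, which makes retinoic acid (-1.83 ± 0.22, SE; limma adjusted p = 9.22e-04), and the collagen Col3a1 (-0.73 ± 0.12, adjusted p = 0.00654) were lower with activin than with PBS. Over all named genes 2.14% were called lower in this comparison. Dcn, a matrix proteoglycan, was -1.77 ± 0.54 and was called with the block alone (adjusted p = 0.139, block 0.00667). Gli2, a Hedgehog pathway factor, was called higher with the block alone, against PBS (0.20 ± 0.10, adjusted p = 0.441, block 0.0443) and against activin plus follistatin (0.23 ± 0.10, adjusted p = 0.246, block 0.0134). Col1a1, a collagen chain above background, was -0.02 ± 0.07 against PBS (adjusted p = 0.969) and 0.06 ± 0.07 against activin plus follistatin. The median difference of the 9 against PBS was -0.01, so the mean level of the list moved with Aldh1a1, Dcn and Col3a1. Insl3, Ptch1, Col1a2 and Lhcgr were at background. Against activin plus follistatin, Aldh1a1 (-2.35 ± 0.22), Dcn (-2.81 ± 0.54) and Col3a1 (-0.95 ± 0.12) were all called lower with activin, as were 6.42% of named genes. In the same comparison 1 of the 4 granulosa markers was called, Bex4, at 0.74 ± 0.13 (higher with activin, adjusted p = 0.00378), where 5.50% of named genes were called higher. Wt1, a granulosa transcription factor, was called lower with the block alone, both there (-0.73 ± 0.22, adjusted p = 0.0792, block 2.09e-04) and against PBS (-0.38 ± 0.22, adjusted p = 0.578, block 0.0196).

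Of 14 endothelial markers 5 were measured, with a mean level of 7.27 to 7.43, 7.30 to 7.39 and 7.44 to 7.5 in the 3 treatments, and Emcn and Eng were at background. Robo4, an endothelial receptor, read 7.08 to 7.15 with activin, all below the background level. It read 7.23 to 7.6 with PBS, a mean 0.08 above background, and 7.64 to 8.11 with activin plus follistatin. Its differences were thus read near background. It was lower with activin than with activin plus follistatin by -0.80 ± 0.10 (SE; limma adjusted p = 2.93e-04). With the block alone it was higher with activin plus follistatin than with PBS (0.52 ± 0.10, adjusted p = 0.0722, block 0.00775). Egfl7, a secreted endothelial protein, had the opposite sign, 0.17 ± 0.06 against PBS (adjusted p = 0.182) and 0.19 ± 0.06 against activin plus follistatin (adjusted p = 0.0685, block 0.0525), and passed in neither. Pecam1, an endothelial adhesion molecule, was -0.02 ± 0.04 and -0.05 ± 0.04. Of 10 smooth muscle markers 2 were measured, Cnn1 at background and Acta2 above it, with a mean level of 7.29 to 7.89, 7.26 to 7.65 and 7.35 to 7.89. Of 7 measured macrophage markers 1 was above background, Lyz2, and of 4 surface epithelium markers Krt8 and Krt18 were. The endothelial, smooth muscle, macrophage, epithelial and erythroid lists held 0 genes called by limma between activin and PBS without the block, with 3, 0, 0, 0 and 0 at an unadjusted p below 0.05. Robo4, whose activin arrays were all below background, was called lower in that comparison once experiment was a block (-0.28 ± 0.10, adjusted p = 0.205, block 0.0409). The part of other cell types in the Cav1 result was not tested.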

How the data were processed

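RNA of 12 cultures was read on Illumina Sentrix Mouse-6 arrays from 100 ng of amplified RNA, per the labels' protocols. The deposited values are log2 or close to it, normalized between arrays by the authors with a method that is not given in the sources used here; the submitters' processing notes name lumi (version 1.2.0) but not its role. Array medians ran from 7.166 to 7.180, values from 6.75 to 16.16, and arrays correlated with r of 0.967 to 0.994. The values were used as deposited, and a fold reads the scale as plain log2. The files give no detection calls, and the number of arrays limits the precision.

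Of 46116 probes, 23 spike-in control spots were left out, and 31.9% of the 46093 tested had a mean above 7.31. A number of 5 or 6 digits after leading zeros in a probe identifier was read as a mouse Entrez gene number. Of 10024 such numbers 81.1% are in the RefSeq gene table of GRCm38.p6, against 45.9%, 44.5% and 41.5% after adding 1, 2 and 5. This named 9832 probes of 8127 genes; 36261 probes have no name and could hold further probes of these genes.

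Groups come from the labels. limma 3.58.1 in R 4.3.3 fitted 3 group means to the 12 arrays, and two-sided p-values were adjusted by Benjamini-Hochberg over the 46093 probes (threshold 0.05), and was tested on simulated data. The labels number the experiments across treatments. Deviations from treatment means were compared between arrays over the 14707 probes above background. They had r of 0.331 to 0.801 between arrays of one experiment, and -0.632 to 0.406 between arrays that differ in both experiment and treatment. These ranges overlap at their ends, and the numbers were read as pairing the arrays. The fit with the experiment as a block is given where it changes a call. Without the block an unadjusted p below 0.05 was reached by 5644 of the 46093 probes for activin versus PBS. It was reached by 3304 for activin plus follistatin versus PBS and 7457 for activin versus activin plus follistatin. Counts of list genes at that threshold are to be read beside these. P-values measure the spread between cultures of pooled cells.

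The members and the gene lists were chosen with earlier results of these data known. Named are the members, all measured coat genes, the called genes of the other lists (at most 4 per comparison and list by p, with all 5 of the endosome list named after their values were seen), chromosome neighbours, and the 5 most alike, 3 most opposite and 5 most alike without treatment means. Genes called with the block alone, and measured genes given as examples of a list, were also named after their values were seen. Promoter sequences are from RefSeq on GRCm38.p6, with both members matched.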

Additional observations from a re-analysis of the deposited data

How the results depend on the processing

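Each difference of Cav1 and Sh3kbp1 was recomputed under other settings, and all 135 values kept their direction. Part of them could not change. The blocks and leaving out dim probes alter the SE alone, and an array of the third treatment does not enter a difference. Most of the others are differences that chose the genes, so the count is a description. Only the mean of both Sh3kbp1 probes moved a value by more than the spread between replicates: activin minus PBS became 0.99, activin minus activin plus follistatin 1.22 and activin plus follistatin minus PBS -0.23, and the cause was not tested; Cav1 has 1 probe, so this setting could not be run for it. Leaving out 1 array or 1 experiment gave Cav1 -2.18 to -1.88 for activin minus PBS, -2.53 to -2.11 against activin plus follistatin and 0.13 to 0.48 for activin plus follistatin minus PBS, and Sh3kbp1 1.30 to 1.52, 1.72 to 1.90 and -0.43 to -0.32. The last had adjusted p of 0.106 to 0.738 (limma), and 0.111 to 0.385 under the other alternatives, so it passed in none. The number of arrays and nearness to background limit what can be seen.

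The replicate block raised the probes called from 1342 to 2820 (activin versus PBS), 82 to 557 (activin plus follistatin versus PBS) and 3296 to 5087 (activin versus activin plus follistatin), and named genes from 406 to 863, 21 to 176 and 969 to 1532. A random replicate block gave 132 probes and 38 named genes for the second comparison, as did leaving out dim probes. Leaving out 1 array or experiment gave 625 to 1356, 24 to 107 and 2091 to 3268 probes, and 188 to 404, 7 to 32 and 632 to 963 named genes. The lowest counts came without experiment 3 in both comparisons with PBS and without experiment 2 in the third; of single arrays, PBS in experiment 3 (888 probes and 257 genes) and PBS in experiment 4 (269 genes) lowered the first comparison most. In the second comparison, 47 probes were called without either PBS in experiment 2 or activin plus follistatin in experiment 3, 48 without PBS in experiment 3 and 50 without activin plus follistatin in experiment 1. Apart from the block and fewer arrays or probes, the cause was not tested. In the same comparison 12 named genes were called without activin plus follistatin in experiment 3 and 32 without activin in experiment 4. The block did not change the Sh3kbp1 call against PBS.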
